A study of Mus musculus with 48 samples.

Results

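The metallothioneins Mt1, Mt2 and Mt3, the zinc and metal transporters Slc30a1 and Slc39a14, and the iron-handling genes Slc40a1, Tfrc, Trf, Fth1 and Ftl1 were followed in sorted cells of the neurovascular unit after ischemic stroke in mice. These 10 genes were chosen by name, as were the gene lists used below, with earlier results of these data known. The 10 genes were matched to the gene symbols of the deposited table and made up 10 of its 24973 genes. Microglia, astrocytes, pericytes and endothelial cells were sorted from the ipsilateral and the contralateral hemisphere, which gave 8 groups of 6 libraries and 48 libraries in all. All groups came from male wild-type C57BL/6 mice aged 12 to 15 weeks, in which the right middle cerebral artery was occluded for 1 h and reperfused for 23 h. Each library held cells of 3 to 4 pooled mice, and both hemispheres of a replicate came from the same pool. The contralateral hemisphere served as the control, so it had also passed through surgery and a stroke on the other side, and no sham-operated group was analysed here. Cells were gated by surface markers: CD45low CD11b+ for microglia, and among CD45neg cells, a gate meant to leave out immune cells, ACSA2high for astrocytes, VECAD+ for endothelial cells, and NG2+ PDGFRbeta+ for pericytes.

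Metallothioneins are small cysteine-rich proteins that bind zinc and copper in the cytosol; their genes are switched on by the zinc sensor MTF-1, which binds metal response elements, and by glucocorticoids and inflammatory signals. Mt3 is the neural form, abundant in the brain. Iron enters brain endothelial cells as transferrin taken up by the transferrin receptor, is stored in ferritin, a shell of heavy and light chains, and leaves cells through ferroportin, encoded by Slc40a1. Iron regulatory proteins bind hairpins in the transcripts of these genes, the iron-responsive elements, which holds back translation of ferritin and ferroportin and stabilizes the transferrin receptor mRNA when iron is low.

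The hairpins are printed because they set 4 of these transcripts apart from the other 6. The pattern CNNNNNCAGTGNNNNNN, with all 5 bases before the loop paired to the 5 bases after it (Watson-Crick or G-U pairs), was searched on the sense strand in the UTRs of GENCODE M21 transcripts of build GRCm38. It was found in 155 of 21840 protein-coding genes, 0.71%, and in Fth1, Ftl1, Slc40a1 and Tfrc among the 10 genes here. Capitals mark the loop.
Fth1: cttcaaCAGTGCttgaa
Ftl1: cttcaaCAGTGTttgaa
Slc40a1: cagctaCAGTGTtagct
Tfrc, hairpin nearest the coding region: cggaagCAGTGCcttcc
Tfrc, next hairpin: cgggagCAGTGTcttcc
Tfrc, next hairpin: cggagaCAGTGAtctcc
Tfrc, hairpin nearest the 3′ end: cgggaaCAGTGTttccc
The single hairpins lay in the 5′ UTR, at chr19:9982738-9982754 on the plus strand in Fth1, chr7:45459785-45459801 on the minus strand in Ftl1 and chr1:45925471-45925487 on the minus strand in Slc40a1. The 4 matches of Tfrc lay in its 3′ UTR on the plus strand, from chr16:32631225-32631241 to chr16:32631716-32631732. Elements that depart from this pattern, for example with an unpaired base in the stem, would have been missed, so the matches need not be the full set. A match describes these letters only, since neither binding nor translation was measured.

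Upstream of the metallothioneins, the metal response element was searched as TGCACNC and TGCGCNC on both strands, in the 250 bases before the RefSeq start of each gene (GRCm38.p6). Sites on opposite strands can overlap and were counted separately. At least 1 match was found in 21.4% of 32851 promoter windows and at least 3 matches in 1.26%. Windows were given for 7 of the 10 genes, and Slc39a14, Slc40a1 and Trf had none. Mt2 held 3 matches and Mt1 held 1, both printed here because their RNAs varied together over the libraries, with matches in capitals.
Mt2: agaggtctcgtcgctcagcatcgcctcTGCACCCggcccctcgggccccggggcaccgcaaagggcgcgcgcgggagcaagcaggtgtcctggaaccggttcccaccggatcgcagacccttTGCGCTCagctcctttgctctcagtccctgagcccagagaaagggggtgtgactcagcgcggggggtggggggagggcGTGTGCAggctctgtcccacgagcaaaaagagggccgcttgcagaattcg
Mt1: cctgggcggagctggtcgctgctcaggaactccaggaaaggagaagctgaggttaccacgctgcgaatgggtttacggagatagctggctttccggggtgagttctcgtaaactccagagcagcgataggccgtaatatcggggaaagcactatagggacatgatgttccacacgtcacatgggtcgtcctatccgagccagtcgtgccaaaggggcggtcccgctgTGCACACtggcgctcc
The Mt2 stretch is chr8:94172368-94172617 and the Mt1 stretch chr8:94178839-94179081, both on the plus strand. In Mt2 the matches began at bases -223, -128 and -50 from the start, and in Mt1 at base -23. GENCODE gives Mt1 a transcript start close to the end of this window and others 123 and 153 bases after it, so the window does not cover all sequence in front of those. Both GENCODE starts of Mt2 lie 47 and 243 bases after the end of its window, so the Mt2 positions count from the RefSeq start alone. Slc30a1 held 1 match at base -43 on the minus strand, Tfrc held 2 overlapping ones on opposite strands, and no match was found in the windows of Mt3, Fth1 and Ftl1.

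Values are normalized counts, that is, whole numbers obtained by the authors after scaling the read counts of every library with DESeq2. The libraries summed to between 10549900 and 16942165 normalized counts, and the spacing of low values put the reads on genes at 4900000 to 18700000 per library, so that 3 reads, taken as the floor for counting error, corresponded to 1.9 to 7.1 normalized counts. All 22 markers of the 4 sorted cell types were higher in every library of their own cell type than in any library of another, which places the 12 ipsilateral pericyte and microglial libraries, whose titles and column names disagree, with their column names, as used here. Under the titles each of these fits would set pericytes against microglia: 20.5% to 21.3% of all genes were then called upward and 23.2% to 23.6% downward, and among the changes called below Ftl1 and Tfrc in microglia turned to -1.32 and -0.42 on the log2 scale. RNA of other cells was present in spite of the gates. In astrocyte libraries the 8 oligodendrocyte markers summed to 49062 to 402282 normalized counts on the contralateral and 85692 to 467708 on the ipsilateral side. The 4 astrocyte markers there summed to 57129 to 114614 and 41095 to 121715. Summed microglial markers reached up to 18.4% of the ipsilateral microglial median in ipsilateral pericytes, 15.1% in endothelial cells and 7.48% in astrocytes, all in replicates 1 to 4, and at most 0.42% in the ipsilateral replicates 5 and 6. A pair of libraries stood apart, the contralateral endothelial replicate 2 and the ipsilateral microglial replicate 2.

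A gene was called regulated where limma on log2(normalized count + 1) gave a p of at most 0.05 after Benjamini-Hochberg adjustment over all genes tested, the change was at least 1.5-fold in either direction, and more than 10 normalized counts were present in all 6 libraries of at least 1 hemisphere. All log2 changes are on this scale, ipsilateral over contralateral, and the scale understates changes of genes with low values. All 10 genes passed the filter of a mean of at least 10 normalized counts in each cell type. Of the 40 combinations of gene and cell type, 8 were regulated upward and 2 downward. In microglia 5 genes were upregulated, against 4.29% of all genes tested, and 2 were downregulated, against 6.27%. In pericytes 2 were upregulated and 0 downregulated, against 0.441% and 0.581% of all genes, and in astrocytes 1 and 0, against 0.334% and 0.00655%. In endothelial cells limma called 0 of the 10, against 0.491% of all genes in either direction, while 7 of 10 had an unadjusted p under 0.05, as did 11.9% of all genes. Fits that paired the hemispheres of the same mice, called here the replicate block, gave 13 regulated combinations, the same 10 among them, beside 0.551%, 1.66%, 1.59% and 11% of all genes from endothelial cells to microglia. The 10 genes had a median log2 change of 0.63 (endothelial cells), 0.98 (pericytes), 0.42 (astrocytes) and 1.15 (microglia), beside medians over all genes tested of -0.03, -0.04, -0.06 and -0.18.

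**Figure D1:**
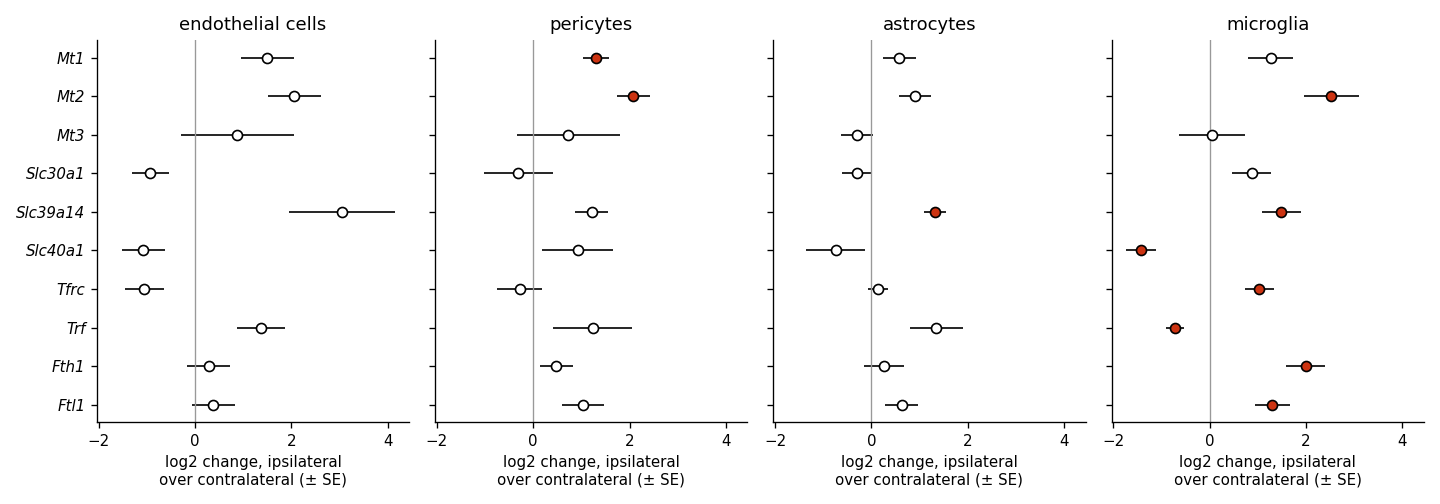
Log2 change of each gene, ipsilateral over contralateral hemisphere, on the log2(normalized count + 1) scale (x axis), with points for the limma estimate, bars for its standard error and 12 libraries per cell type. Filled points mark the 10 regulated combinations, of which 7 are in microglia, 2 in pericytes and 1 in astrocytes.

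Mt1 and Mt2, the widely expressed metallothioneins, were higher on the ipsilateral side on average in all 4 cell types, and were called in pericytes for both and in microglia for Mt2. In contralateral pericytes Mt2 (ENSMUSG00000031762, chr8:94172664-94173568, plus strand) ranged from 83 to 415 normalized counts with a median of 201. In ipsilateral pericytes it ranged from 494 to 969 with a median of 813. The hemispheres did not overlap, a separation upward that 0.838% of all genes tested showed in pericytes. Mt2 rose by 2.08 ± 0.35 (SE, n = 6 per hemisphere) on the log2 scale, with an adjusted p of 0.0169 by limma, in 6 of 6 pairs. Mt1 (ENSMUSG00000031765, chr8:94179082-94180327, plus strand) went from 1961 to 6455 normalized counts, median 3455, in contralateral pericytes to 6417 to 14201, median 8863.5, in ipsilateral pericytes. The lowest ipsilateral library lay just under the highest contralateral one. The log2 change of Mt1 was 1.30 ± 0.27 (adjusted p = 0.0386 by limma), again in 6 of 6 pairs. Without replicate 3, 4 or 6 the Mt2 call in pericytes was lost by limma (adjusted p = 0.0765, 0.0925 and 0.0859), and the Mt1 call was lost without replicate 1, 3, 4, 5 or 6 (0.0709, 0.155, 0.1, 0.102 and 0.128), in replicates 1 to 4 alone (0.14, and 0.0696 for Mt2), in the joint fit (0.132) and without the filter on low values (0.064).

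In contralateral microglia Mt2 was low, from 38 to 174 normalized counts with a median of 81.5. In ipsilateral microglia it ranged from 134 to 2036 with a median of 493.5. The ipsilateral replicates 5 and 6, at 134 and 164, fell within the contralateral range. Mt2 changed on the log2 scale by 2.52 ± 0.57 (adjusted p = 0.0122 by limma) in 6 of 6 pairs, and the call was lost without replicate 1, 3 or 4 (adjusted p = 0.0523, 0.0589 and 0.0504). Mt1 in microglia ranged from 1829 to 6059 normalized counts, median 3817, on the contralateral side and from 2960 to 31969, median 8451, on the ipsilateral side. The ranges overlapped, although every pair was higher on the ipsilateral side. Its log2 change of 1.27 ± 0.47 was not called without the block (adjusted p = 0.0958 by limma) and was called in the blocked fit (0.00967) and in replicates 1 to 4 alone (0.0417).

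In endothelial cells the largest contralateral value of both genes came from 1 library. Mt1 ranged from 1937 to 23171 normalized counts, median 4316, on the contralateral side, and from 5269 to 26462, median 17936.5, on the ipsilateral side. Mt2 ranged from 163 to 2350, median 437, and from 775 to 3519, median 2625. The contralateral replicate 2 held the highest values, 23171 and 2350, and next to it came 6939 and 725, so that without this library Mt2 would not overlap and Mt1 would overlap with the ipsilateral replicate 5 alone. That library also held 206310 normalized counts of Fth1 and the highest summed choroid plexus and erythroid markers of its group, 111358 and 78354, and its part in the result is given by the fit without it. The log2 changes were 1.5 ± 0.55 for Mt1 (adjusted p = 0.284 by limma) and 2.06 ± 0.55 for Mt2 (0.128). With the block Mt2 was called (adjusted p = 0.0342), as it was without replicate 2 of both hemispheres (0.0468) and in the joint fit (0.021). Without the single contralateral library both were called, with log2 changes of 1.94 for Mt1 (0.0465) and 2.51 for Mt2 (0.0155).

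Astrocytes held the highest metallothionein levels of the 4 cell types and no called change. Mt1 ranged from 17126 to 71357 normalized counts, median 27661.5, in contralateral and from 38049 to 56327, median 42076, in ipsilateral astrocytes. Mt2 ranged from 725 to 2683, median 1317, and from 1849 to 3550, median 2710.5. Ipsilateral libraries lay within the contralateral range of Mt1 and within or above that of Mt2, and were closer to each other: the standard deviation of log2 Mt1 was 0.22 on the ipsilateral and 0.79 on the contralateral side. The log2 changes of 0.58 ± 0.34 and 0.90 ± 0.33 had adjusted p of 0.643 and 0.433 by limma, with 5 of 6 pairs higher for each gene.

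Mt3 (ENSMUSG00000031760, chr8:94152607-94154146, plus strand), the neural metallothionein, was highest in the astrocyte libraries and was not called in any cell type. It ranged from 2834 to 15393 normalized counts, median 6492, in contralateral astrocytes and from 3435 to 7166, median 5327.5, in ipsilateral astrocytes. The ipsilateral range lay inside the contralateral one. On the log2 scale the change was -0.30 ± 0.34 (adjusted p = 0.84 by limma), with 2 of 6 pairs higher, beside 5 of 6 for Mt1 and Mt2 in the same libraries. Over the endothelial and pericyte libraries of both hemispheres Mt3 ranged from 2 to 534 normalized counts, and in microglia from 17 to 221, with changes of either sign between pairs. The 10 neuron markers summed to 1071 to 5346 normalized counts in contralateral and 1232 to 7745 in ipsilateral astrocyte libraries, higher in 5 of 6 pairs. The part of neuronal RNA in Mt3 was not tested.

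**Figure D2:**
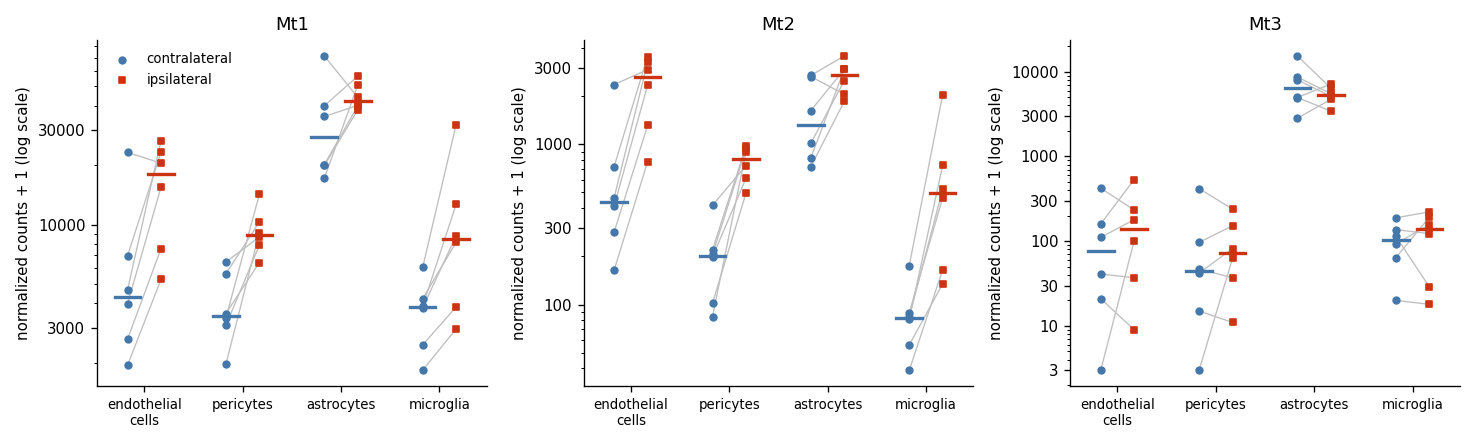
Normalized counts + 1 (y axis, log scale) of Mt1, Mt2 and Mt3 in contralateral (circles) and ipsilateral (squares) libraries of 4 cell types, with grey lines joining the hemispheres of a replicate and bars at the median of 6 libraries. Mt2 separates the hemispheres in pericytes, and Mt3 stands at 2834 to 15393 in astrocytes and at 2 to 534 elsewhere.

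The ratio of Mt2 to Mt1 normalized counts within a library, looked at after the values were seen and given with no test, was higher on the ipsilateral side in 6 of 6 pairs in each cell type. In microglia it ranged from 0.0197 to 0.0287 on the contralateral side and from 0.0351 to 0.0643 on the ipsilateral side, without overlap. In pericytes it ranged from 0.0327 to 0.065 and from 0.0629 to 0.0982, with a small overlap, and in endothelial cells from 0.0842 to 0.107 and from 0.122 to 0.174, with none. The contralateral endothelial replicate 2, high in both genes, did not stand apart in this ratio. The astrocyte ratios overlapped, 0.0364 to 0.0761 against 0.0464 to 0.0886. The ratio is not per length and compares hemispheres, not the levels of the genes.

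Slc30a1 (ENSMUSG00000037434, chr1:191906767-191913247, plus strand) encodes ZnT1, which exports zinc across the plasma membrane and is a classical MTF-1 target like the metallothioneins. It was mainly endothelial and did not rise with Mt1 and Mt2 there. It ranged from 994 to 4057 normalized counts, median 1400.5, in contralateral and from 393 to 1484, median 816, in ipsilateral endothelial cells. The hemispheres overlapped, with 1 of 6 pairs higher on the ipsilateral side. The log2 change was -0.93 ± 0.38 (adjusted p = 0.343 by limma, unadjusted 0.0279). In pericytes, astrocytes and microglia Slc30a1 ranged from 10 to 299 normalized counts over both hemispheres. Its log2 changes there were -0.31 ± 0.71, -0.30 ± 0.31 and 0.87 ± 0.41, with adjusted p of 0.874, 0.826 and 0.184 by limma.

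Slc39a14 (ENSMUSG00000022094, chr14:70303469-70351425, minus strand) encodes ZIP14, an importer of zinc, manganese and iron that is not bound to transferrin. It rose in astrocytes and in microglia. In astrocytes it ranged from 384 to 1212 normalized counts, median 595, on the contralateral side and from 1212 to 1828, median 1578.5, on the ipsilateral side. The lowest ipsilateral and the highest contralateral library had the same value, 1212, so the hemispheres touched. Slc39a14 changed on the log2 scale by 1.32 ± 0.23 (adjusted p = 0.026 by limma) in 6 of 6 pairs. In microglia the ranges were 346 to 971, median 550, and 414 to 3462, median 1776.5. A single ipsilateral library, replicate 2 at 414, lay within the contralateral range. On the log2 scale the change was 1.49 ± 0.40 (adjusted p = 0.0283 by limma), with 5 of 6 pairs higher.

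In pericytes Slc39a14 ranged from 375 to 1243 normalized counts, median 498.5, and from 593 to 2292, median 1508.5. The ranges overlapped, with every pair higher on the ipsilateral side. The log2 change of 1.21 ± 0.34 was not called without the block (adjusted p = 0.104 by limma) and was called in the blocked fit (0.0455). In endothelial cells it was low on the contralateral side, with 33, 2, 98, 0, 107 and 70 normalized counts in replicates 1 to 6, and held 169, 226, 556, 177, 86 and 75 on the ipsilateral side. Replicates 1 to 4 were higher on the ipsilateral side and replicates 5 and 6 differed little. Microglial marker sums of the same libraries were 23573, 62456, 27622, 13034, 1420 and 1690 normalized counts on the contralateral and 52195, 40851, 87980, 14435, 1384 and 1472 on the ipsilateral side, with replicate 3 highest on the ipsilateral side in both, and the part of microglial RNA in Slc39a14 was not tested. The log2 change of 3.05 ± 1.10 (adjusted p = 0.271 by limma) rested on the libraries at 0 and 2, which are at or under the floor of 3 reads, and was called in the joint fit alone (0.00949). In astrocytes the call was lost without replicate 1, 2, 4, 5 or 6 (adjusted p = 0.0934, 0.183, 0.0724, 0.147 and 0.071), and in microglia without replicate 1, 3, 4, 5 or 6 (0.0988, 0.112, 0.0979, 0.0712 and 0.0506). Both were also lost in the joint fit (0.881 and 0.195) and in replicates 1 to 4 alone (0.24 and 0.0972).

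**Figure D3:**
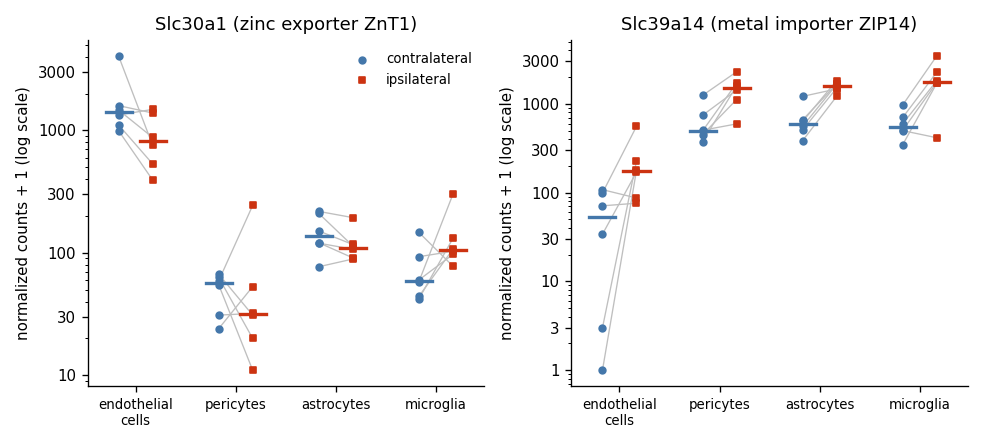
Normalized counts + 1 (y axis, log scale) of Slc30a1 and Slc39a14 in contralateral (circles) and ipsilateral (squares) libraries, with grey lines joining the hemispheres of a replicate and bars at the median of 6 libraries. Slc30a1 stands highest in endothelial cells, and the medians of Slc39a14 are higher on the ipsilateral side in all 4 cell types.

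Ferroportin and transferrin transcripts fell in microglia while both ferritin chains and the transferrin receptor rose. Slc40a1 (ENSMUSG00000025993, chr1:45908068-45925582, minus strand), the iron exporter, ranged from 2057 to 2818 normalized counts, median 2272, in contralateral microglia and from 280 to 1315, median 1109, in ipsilateral microglia. The hemispheres did not overlap, and 4.78% of all genes tested were separated downward in microglia. The log2 change was -1.43 ± 0.31 (adjusted p = 0.00881 by limma) in 6 of 6 pairs. Trf (ENSMUSG00000032554, chr9:103204001-103230444, minus strand), the iron carrier transferrin, ranged from 1446 to 2228, median 1778, and from 722 to 1405, median 1140. These groups also did not overlap. Its log2 change was -0.72 ± 0.18 (adjusted p = 0.0196 by limma), lower in 6 of 6 pairs. Slc40a1 kept its call with each replicate left out and lost it in the joint fit (0.149) and in replicates 1 to 4 alone (0.0506), and Trf lost its call without replicate 1, 3, 4 or 6 (0.0569, 0.0506, 0.0677 and 0.0615), in the joint fit (0.535) and in replicates 1 to 4 alone (0.0869).

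Fth1 (ENSMUSG00000024661, chr19:9982703-9985092, plus strand), the ferritin heavy chain that oxidizes iron for storage, ranged from 43433 to 69933 normalized counts, median 58440.5, in contralateral microglia. In ipsilateral microglia it ranged from 104325 to 663556, median 246801.5. The hemispheres did not overlap, against 3.78% of all genes tested that were separated upward. Fth1 took a median of 0.477% of all normalized counts of a contralateral microglial library and 2.06% of an ipsilateral one, with a highest share of 3.92% in the ipsilateral replicate 2. Fth1 changed on the log2 scale by 1.99 ± 0.40 (adjusted p = 0.00573 by limma) in 6 of 6 pairs. This call held with each replicate left out and under every other alternative computed, of which the fit under the sample titles sets pericytes against microglia and is not a stroke comparison. The mean log2 change of Fth1 per pair was 2.4 in replicates 1 to 4 and 1.17 in replicates 5 and 6, whose ipsilateral libraries held 104325 and 106587 normalized counts. Ftl1 (ENSMUSG00000050708, chr7:45457944-45459884, minus strand), the ferritin light chain, ranged from 12303 to 23539, median 16678, and from 18627 to 104922, median 43588.5. The ranges overlapped in replicates 5 and 6 of the ipsilateral side. Its log2 change was 1.30 ± 0.36 (adjusted p = 0.0306 by limma) in 6 of 6 pairs, lost without replicate 1, 3 or 4 (0.0848, 0.111 and 0.0816) and in the joint fit (0.0644).

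Tfrc (ENSMUSG00000022797, chr16:32608920-32632794, plus strand), the transferrin receptor, ranged from 239 to 819 normalized counts, median 334, in contralateral and from 558 to 1254, median 713, in ipsilateral microglia. The ranges overlapped through the contralateral replicate 6, at 819. On the log2 scale the change was 1.03 ± 0.30 (adjusted p = 0.037 by limma) in 6 of 6 pairs, lost without replicate 1, 2, 3, 4 or 5 (0.0774, 0.0558, 0.101, 0.105 and 0.0914), without the filter on low values (0.0565) and in the joint fit (0.104). Tfrc and the ferritins, which carry hairpins in opposite UTRs, changed in the same direction at the RNA level in microglia. Slc40a1, with a 5′ hairpin like the ferritins, changed in the other direction. Beside these changes, the 10 microglial markers summed to 744023 to 868835 normalized counts on the contralateral and 405263 to 727554 on the ipsilateral side, lower in 6 of 6 pairs, and 3 of the 10 were downregulated. The 8 neutrophil markers summed to 90 to 1070 and 1575 to 18833, higher in 6 of 6 pairs, with 3 of 8 upregulated and none at 0 throughout, and the 8 markers of monocytes and macrophages to 351 to 1790 and 1149 to 3298, higher in 5 of 6 pairs. The part of these shifts in the changes of the iron genes was not tested, and fewer cells of a type and less RNA per cell cannot be told apart in bulk libraries.

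In endothelial cells, where Tfrc carries iron across the barrier, Tfrc and Slc40a1 were lower on the ipsilateral side without being called. Tfrc ranged from 1093 to 4381 normalized counts, median 2460.5, on the contralateral and from 653 to 2025, median 901, on the ipsilateral side. Slc40a1 ranged from 1101 to 7675, median 4561, and from 1041 to 4009, median 1870.5. Both overlapped between hemispheres, with 0 of 6 pairs higher for Tfrc and 1 of 6 for Slc40a1. The log2 changes were -1.05 ± 0.41 and -1.07 ± 0.45, with adjusted p of 0.311 and 0.36 by limma, and 0.119 and 0.156 in the blocked fit. Replicates 1 to 4 and replicates 5 and 6 gave mean log2 changes per pair of -0.97 and -1.19 for Tfrc and of -1.06 and -1.07 for Slc40a1. Summed endothelial markers were 63144 to 92219 normalized counts on the contralateral and 50747 to 80091 on the ipsilateral side, with 3 of 6 pairs higher.

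Between microglia and endothelial cells the log2 change of Tfrc differed by 2.08 ± 0.54, which was past the threshold with the block (adjusted p = 0.00219 by limma) and not without it (0.0864). Of the 60 differences of the stroke change tested, 10 genes by 6 pairs of cell types, 0 passed the threshold without the block, 13 had an unadjusted p under 0.05, and 4 passed with the block, beside 0.231% and 0.62% of the tests over all genes. The others were Tfrc in pericytes against microglia (log2 difference -1.32, adjusted p = 0.039 with the block by limma), Fth1 in endothelial cells against microglia (-1.71, 0.0443) and Fth1 in astrocytes against microglia (-1.73, 0.0412). With the block, 0.787%, 1.69% and 0.767% of all genes passed for endothelial cells, pericytes and astrocytes against microglia. Even with the block, Fth1 in pericytes against microglia (adjusted p = 0.0561 by limma) and Tfrc in astrocytes against microglia (0.281) did not pass. A call in 1 cell type and not in another was therefore not shown to differ for the other genes. For Tfrc and Fth1 a difference was seen only in the pairs named and only with the block, so neither change was shown to be particular to microglia.

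Endothelial cells, pericytes and astrocytes showed no called change of ferritin. Fth1 medians were 45400.5 and 83978.5 normalized counts in contralateral and ipsilateral endothelial cells, 101879 and 123566.5 in pericytes, and 77166 and 94871 in astrocytes. All 3 pairs of groups overlapped. The log2 changes were 0.28 ± 0.44, 0.48 ± 0.34 and 0.26 ± 0.41, with adjusted p of 0.865, 0.534 and 0.899 by limma. Replicate pairs higher on the ipsilateral side numbered 5, 6 and 4 of 6. The contralateral endothelial replicate 2 held 206310 normalized counts of Fth1 (next 82957) and 29955 of Ftl1 (next 7240). Ftl1 changed by 0.38 ± 0.44 in endothelial cells and 0.63 ± 0.34 in astrocytes (adjusted p = 0.798 and 0.62 by limma), with 5 of 6 pairs higher in each. Ftl1 ranged from 2067 to 4525, median 3542, in contralateral and from 2874 to 18419, median 5800, in ipsilateral pericytes. The ipsilateral replicates 2, 3 and 4, at 7921, 18419 and 14892, were above every contralateral library, and replicates 5 and 6, at 2874 and 3228, were not. The same 3 libraries had microglial marker sums of 59918, 107546 and 97197 normalized counts, and replicates 5 and 6 had 929 and 706. The log2 change of Ftl1 was 1.03 ± 0.44 over all pairs (adjusted p = 0.285 by limma), 1.67 on average in replicates 1 to 4 and -0.25 in replicates 5 and 6. The part of microglial RNA in this difference was not tested.

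The ratio of Ftl1 to Fth1 normalized counts, looked at after the values were seen and given with no test, ranged in microglia from 0.234 to 0.357, median 0.273, on the contralateral side and from 0.158 to 0.193, median 0.177, on the ipsilateral side. The microglial groups did not overlap, and the ratio was lower in 6 of 6 pairs. In astrocytes it was higher in 6 of 6 pairs, with ranges of 0.023 to 0.0437 and 0.0327 to 0.0586 that overlapped. In endothelial cells and pericytes it was higher in 4 of 6 pairs.

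**Figure D4:**
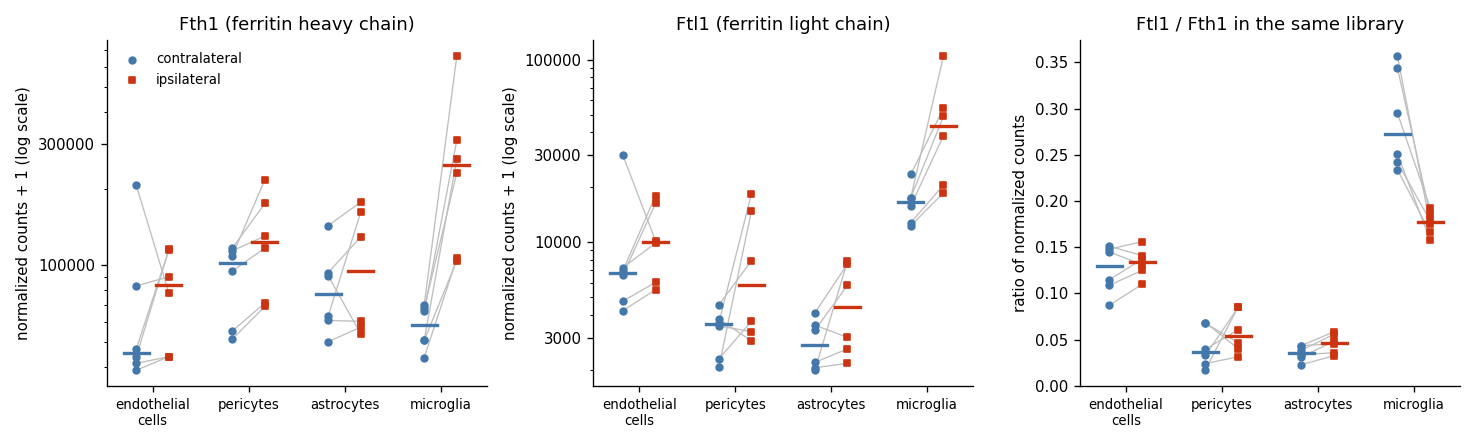
Normalized counts + 1 of Fth1 and Ftl1 (y axis, log scale) and the ratio of Ftl1 to Fth1 in the same library (linear axis from 0), in contralateral (circles) and ipsilateral (squares) libraries, with grey lines joining the hemispheres of a replicate and bars at the median of 6 libraries. In microglia Fth1 is higher in all 6 ipsilateral libraries than in any contralateral one, and the ratio is lower.

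Trf, which oligodendrocytes make in the brain, had higher ipsilateral means in the other 3 cell types and was called in none of them (unadjusted p of 0.0153, 0.154 and 0.0241 in endothelial cells, pericytes and astrocytes by limma). In astrocyte libraries it ranged from 578 to 3383 normalized counts, median 2049.5, on the contralateral and from 1788 to 11978, median 4879.5, on the ipsilateral side. The ranges overlapped, and 3 ipsilateral libraries, replicates 2 to 4, stood above all contralateral ones at 6976, 11978 and 11004. The log2 change was 1.35 ± 0.54 (adjusted p = 0.469 by limma, 0.0562 in the blocked fit). All 8 oligodendrocyte markers were detected in the astrocyte libraries, with sums of 49062 to 402282 and 85692 to 467708 normalized counts, higher on the ipsilateral side in 3 of 6 pairs. The astrocyte library with the lowest Trf, contralateral replicate 6, also had the lowest oligodendrocyte sum. The ipsilateral replicate 4 had the highest sum, 467708, with 11004 of Trf, while the contralateral replicate 4 had 402282 with 3383 of Trf. The highest Trf, 11978 in the ipsilateral replicate 3, came with a sum of 320566. The part of oligodendrocyte RNA in the level or the change of Trf was not tested. In endothelial cells Trf ranged from 31 to 275 and from 106 to 462 normalized counts, higher in 6 of 6 pairs and with overlap. Its log2 change there was 1.37 ± 0.50 (adjusted p = 0.274 by limma), beside oligodendrocyte sums of 1324 to 12153 and 1625 to 22353. In pericytes it ranged from 11 to 354 and from 25 to 400, with a log2 change of 1.23 ± 0.81 (0.499).

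In pericytes and astrocytes Slc40a1 and Tfrc were not called. Slc40a1 ranged from 8 to 342 normalized counts in pericytes and from 14 to 251 in astrocytes over both hemispheres, with log2 changes of 0.92 ± 0.73 and -0.74 ± 0.61 and adjusted p of 0.582 and 0.77 by limma. Tfrc had medians of 425.5 and 249.5 in contralateral and ipsilateral pericytes and of 1239.5 and 1526 in astrocytes, with log2 changes of -0.28 ± 0.47 and 0.14 ± 0.21 (adjusted p of 0.82 and 0.887 by limma). All these groups overlapped.

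**Figure D5:**
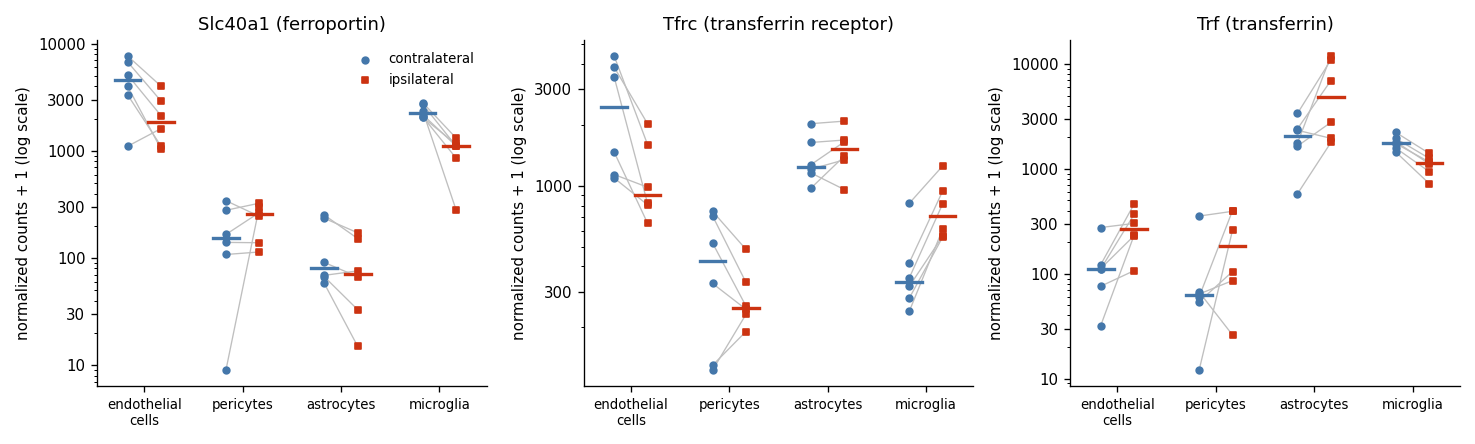
Normalized counts + 1 (y axis, log scale) of Slc40a1, Tfrc and Trf in contralateral (circles) and ipsilateral (squares) libraries, with grey lines joining the hemispheres of a replicate and bars at the median of 6 libraries. In microglia all 6 ipsilateral libraries lie under all contralateral ones for Slc40a1 and Trf, and every Tfrc pair is higher on the ipsilateral side.

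In the contralateral hemisphere the cell types divided these genes among them. Of the 60 level differences between pairs of cell types, 35 passed the threshold by limma in a fit of all 48 libraries, beside 45.8% of the tests over all genes. Mt1 was highest in astrocytes, with a mean log2 level of 14.86 ± 0.79 (SD, n = 6), followed by endothelial cells at 12.28 ± 1.26, pericytes at 11.86 ± 0.62 and microglia at 11.75 ± 0.61. These lower cell types did not differ from each other past the threshold, and all differed from astrocytes (adjusted p of at most 7.68e-06). Mt2 kept the same order, at 10.43 ± 0.83, 8.96 ± 1.31, 7.48 ± 0.83 and 6.29 ± 0.73, and each neighbour differed except pericytes and microglia (adjusted p = 0.0504 by limma). Mt3 stood at 12.66 ± 0.84 in astrocytes, and the others, at 5.29 to 6.39, did not differ past the threshold.

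Slc30a1 was highest in endothelial cells at 10.60 ± 0.72, followed by astrocytes at 7.14 ± 0.57, microglia at 6.06 ± 0.69 and pericytes at 5.54 ± 0.62. Astrocytes and microglia (adjusted p = 0.0506 by limma) and microglia and pericytes (0.381) did not differ past the threshold. Slc39a14 was close in mean log2 level in astrocytes, pericytes and microglia at 9.27 ± 0.55, 9.19 ± 0.63 and 9.16 ± 0.50, and lower in endothelial cells at 4.37 ± 2.87. The differences among astrocytes, pericytes and microglia had adjusted p of 0.913 to 0.987.

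Slc40a1 was highest in endothelial cells and microglia, at 11.95 ± 1.01 and 11.20 ± 0.20, which did not differ past the threshold (adjusted p = 0.327 by limma), and lower in pericytes and astrocytes at 6.83 ± 1.90 and 6.73 ± 0.95. Tfrc ordered as endothelial cells at 11.09 ± 0.93, astrocytes at 10.39 ± 0.38, microglia at 8.53 ± 0.63 and pericytes at 8.40 ± 1.17, with the middle step past the threshold and the outer ones not (0.128 and 0.806). Trf stood at 10.80 in both microglia and astrocytes (SD 0.22 and 0.88), above endothelial cells and pericytes at 6.65 ± 1.01 and 5.96 ± 1.55. Ftl1 was highest in microglia at 13.98 ± 0.34, then 12.90 ± 1.02 in endothelial cells, 11.63 ± 0.44 in pericytes and 11.42 ± 0.45 in astrocytes, with the last step not past the threshold (0.722). In replicates 5 and 6, where microglial marker sums of endothelial cells were lowest at 1420 and 1690, Ftl1 was 4213 and 4750 normalized counts in endothelial cells and 3788 and 3473 in pericytes. The part of microglial RNA in the endothelial level of Ftl1 was not tested. Fth1, at 15.80 to 16.38 in every cell type, gave 0 of 6 differences past the threshold by limma, with a smallest unadjusted p of 0.158. The part of oligodendrocyte RNA in the levels of the astrocyte libraries, those of Trf and Fth1 among them, was not tested.

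Of 24 further genes of zinc handling, 17 to 19 were tested per cell type. In microglia 1 of 19 was upregulated and 1 downregulated, near the shares of 4.29% and 6.27% among all genes tested. In endothelial cells, pericytes and astrocytes limma called 0 of them, while 2, 2 and 1 had an unadjusted p under 0.05. In microglia the zinc importer Slc39a4 rose by 1.21 ± 0.36 (log2, adjusted p = 0.0428 by limma) and the importer Slc39a12 fell by 2.86 (SE 0.53, 0.00385). Slc39a12 ranged from 289 to 638 normalized counts in contralateral and 11 to 145 in ipsilateral microglia, beside 2606 to 11881 in astrocytes. The 4 astrocyte markers in microglial libraries summed to 2851 to 3616 and 958 to 1432, also lower in 6 of 6 pairs and with 1 of 4 downregulated, and their part in the fall of Slc39a12 was not tested. Of 36 further iron genes, 24 to 28 were tested. Microglia had 3 upregulated and 1 downregulated of 24, beside 4.29% and 6.27% of all genes. The upregulated ones numbered 2 of 28 in astrocytes, beside 0.334% of all genes, 1 of 28 in pericytes, beside 0.441%, and 1 of 25 in endothelial cells, beside 0.491% in either direction. Hmox1, which frees iron from heme, was upregulated in endothelial cells by 3.11 ± 0.40 (log2, adjusted p = 0.00341 by limma), in astrocytes by 3.49 ± 0.27 (5.07e-05) and in microglia by 1.78 ± 0.25 (0.000831). In these cell types Hmox1 separated the hemispheres without overlap, as did 1.13%, 0.655% and 3.78% of all genes upward: it ranged from 133 to 552 and from 1369 to 4966 normalized counts in endothelial cells, from 190 to 667 and from 3746 to 5367 in astrocytes, and from 1424 to 2666 and from 3727 to 11481 in microglia. In pericytes, from 0 to 1693 and from 273 to 6191 normalized counts, the log2 change of 3.42 ± 1.41 was not called (adjusted p = 0.265 by limma), with 6 of 6 pairs higher. Lcn2, a carrier of iron-binding siderophores, was upregulated in pericytes by 2.58 ± 0.42 (0.0153), in astrocytes by 3.89 ± 0.51 (0.00379) and in microglia by 3.72 ± 0.65 (0.00287). In microglia Hp, the haptoglobin gene, rose by 3.27 ± 0.51 (0.00158) and Hfe, the hemochromatosis protein that binds the transferrin receptor, fell by 0.93 (SE 0.21, 0.0117). With the replicate block Lcn2 was also called in endothelial cells (adjusted p = 0.0279 by limma, 0.272 without it), and Cp and Slc11a2 in microglia (0.0487 and 0.0486). In replicates 1 to 4 alone, 0 of the zinc genes rose in microglia by limma, against 1 in all replicates. Neutrophils also express Lcn2 and Hp. Neutrophil marker sums were 1 to 917 and 218 to 5195 normalized counts in contralateral and ipsilateral astrocytes, and 0 to 1270 and 41 to 13137 in pericytes. In endothelial cells they were 1 to 1612 and 92 to 9871, and in microglia 90 to 1070 and 1575 to 18833, higher in 6 of 6 pairs in both. The ipsilateral microglial replicate 2, with the highest sum, also held the most Hp and Lcn2 of the microglial libraries, 512 and 1856. Astrocytes, pericytes and endothelial cells were sorted as CD45neg cells, and the part of this shift in these genes was not tested. The median log2 change of the zinc list was 0.22, 0.05, -0.05 and 0.14, and that of the iron list 0.26, 0.40, 0.04 and 0.17, in endothelial cells, pericytes, astrocytes and microglia.

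Across the 48 libraries, after the mean of each cell type was taken out, Mt1 and Mt2 were each other's closest genes among 12405, with a Pearson's r of 0.95 that is given as a description, since libraries share mice, depth and stroke side. Next to Mt1 came Mrpl52 (0.91) and Krtcap2 (0.87), and next to Mt2 Nme1 and Esd (0.90 each). Slc39a14 was closest to Tsr1 (0.91), Rrs1 and Sqle (0.84 each). Fth1 was closest to Gm6977 (0.99), Cstb (0.93) and Psmb2 (0.92), and Ftl1 to Ftl1-ps1 (0.93), a pseudogene of it by name, Ctsl and Cstb (0.88 each). Slc40a1 came closest to Slc46a3 (0.74), Ivns1abp and Trim34a (0.67 each), Tfrc to Zhx1, Map3k20 and Wapl (0.69 each), and Trf to Epb41l3 (0.75), Cxcl16 and Irf8 (0.71 each). Between the ferritin chains r was 0.86, and between Mt1 and Fth1 0.74. Reads mapping to several places or overlapping several genes had been left out by the authors, which bears on genes with copies or partners. Among genes whose names mark them as ferritin copies, the processed pseudogenes held at most 0.171% of the values of their parent gene. Ftl1-ps1, annotated as protein-coding, held at most 0.456% of Ftl1. Copies under other names were not searched for, and the level of Gm6977 beside Fth1 was not examined. The antisense gene Gm45774 over Mt2 held at most 26.5% of Mt2, and Gm10252 over Ftl1 at most 0.325%. Over Slc30a1, 1700034H15Rik held at most 26 normalized counts, and at its highest share 137% of Slc30a1.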

How the data were processed

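RNA of the 4 sorted cell populations was sequenced by the authors (SMART-Seq, single reads), trimmed with Trimmomatic 0.38, aligned with STAR 2.6.1d to GRCm38, counted with featureCounts 1.6.3 without reads that overlapped several genes or mapped to several places, and normalized with DESeq2 1.18.1. The values deposited are normalized counts without decimals, so they were handled as a score and not as raw counts, and no count model was run. The strand setting of the counting is not given in the sources used here. All columns were mapped to samples (0 left out), by the column names in the sample descriptions.

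Hemispheres were compared here in R 4.3.3 with limma 3.58.1 (lmFit, eBayes with trend) on log2(normalized count + 1), with 12 libraries in the fit of a cell type, two-sided, with Benjamini-Hochberg adjustment over genes with a mean of at least 10. Levels between cell types and differences of the stroke change came from a fit of all 48 libraries. The fits were tested on simulated data. Other steps used Python 3.11.15, numpy 2.4.6, pandas 2.3.3 and matplotlib 3.10.9. Both hemispheres of a replicate came from the same pooled mice, and same-numbered libraries deviated from their group means with mean correlations of 0.23, 0.23, 0.38 and 0.14 in endothelial cells, pericytes, astrocytes and microglia, against -0.04, -0.04, -0.08 and -0.03 for different numbers. Replicates are pools of different mice.

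The members and lists were chosen with earlier results of these data known. Named were the 10 genes, the regulated genes of the zinc and iron lists (at most 12), and for each regulated member the 3 genes of most similar pattern among those with at least 36 values above 0. Marker lists of the 4 sorted cell types, of oligodendrocytes, choroid plexus, erythroid cells, neutrophils, monocytes and macrophages, and neurons were used as checks. Alternatives were pseudocounts of 0.1 and 10, the replicate block, the joint fit, rescaling within the cell type, omission of the expression rule or of the minimum fold change, a minimum mean of 50 or none, omission of each replicate, replicates 1 to 4 alone, and the cell types of the sample titles. The fits without a single library, the log2 changes of single genes under the sample titles and the related lists in replicates 1 to 4 were added after the data were seen. Sequences are from RefSeq (GRCm38.p6) and GENCODE M21.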

Additional observations from a re-analysis of the deposited data

Results flagged for a closer look

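In 19 of the 80 groups of 6 libraries, 1 library lay far from the others by Dixon's criterion. Its cutoff is set so that about 1 in 20 groups of normally distributed values meet it by chance. Here it was applied to normalized counts without a log, and the 80 groups share libraries, so this rate need not hold for them. Most were the same libraries. The contralateral endothelial replicate 2 was the highest for Mt1 at 23171 normalized counts (next 6939), Mt2 at 2350 (725), Mt3 at 421 (159), Slc30a1 at 4057 (1593), Trf at 275 (121), Fth1 at 206310 (82957) and Ftl1 at 29955 (7240). The ipsilateral microglial replicate 2 was the highest for Mt1 at 31969 (next 12644), Mt2 at 2036 (739), Slc30a1 at 299 (130) and Fth1 at 663556 (310177). The contralateral pericyte replicate 2 was the highest for Mt3 at 418 (96) and Trf at 354 (66).

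The other values far from their group were Mt2 at 174 in the contralateral microglial replicate 2 (next 88), Slc30a1 at 243 in the ipsilateral pericyte replicate 6 (52) and at 193 in the ipsilateral astrocyte replicate 1 (116), Slc39a14 at 556 in the ipsilateral endothelial replicate 3 (226) and at 1212 in the contralateral astrocyte replicate 3 (659), and Tfrc at 819 in the contralateral microglial replicate 6 (416). All were the highest of their group.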

How the results depend on the processing

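The direction of the 10 regulated changes held under every alternative computed except the cell types of the sample titles, which turned Ftl1 and Tfrc in microglia; the calls depended on the setting. Shares in parentheses are those of all genes tested, called in the same direction. With the replicate block, which pairs the hemispheres of the same mice, 1 gene was upregulated in endothelial cells in place of 0 (0.378%), and 4 of 60 differences of the stroke change passed in place of 0. In the joint fit upregulated genes numbered 2 in microglia (2.73%), where 0 were downregulated (2.78%), 0 in astrocytes (0.56%), 1 in pericytes (1.32%) and 2 in endothelial cells (1.19%); that fit tested 15003 genes with 1 shared spread. Without the filter on low values 1 was upregulated in pericytes (0.176%). In replicates 1 to 4 alone 0 were upregulated in pericytes (0.184%) and astrocytes (0.314%) and 0 downregulated in microglia (3.34%). With the cell types of the sample titles, where each fit sets pericytes against microglia, 7 were upregulated in pericytes (21.3%), and the calls of Mt1 and Mt2 there were lost (adjusted p = 0.0639 and 0.0817 by limma). With each replicate left out in turn, or with the single libraries that stood apart left out, upregulated genes numbered 1 to 5 in microglia (1.96% to 5.76%), where 1 to 2 were downregulated (2.23% to 9.34%), 0 to 1 in astrocytes (0.0787% to 0.392%), 0 to 2 in pericytes (0.0662% to 0.343%) and 0 to 2 in endothelial cells (0.0674% to 0.987%). Both pseudocounts, rescaling, the mean of at least 50, no expression rule and no minimum fold change left these counts within 1.5 times of those reported. The cause of the other shifts was not tested.

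With the sample titles the log2 change of Ftl1 in microglia turned to -1.32 and that of Tfrc to -0.42, both called upward with the column names, and among values not called Mt3 and Slc30a1 turned to -0.37 and -0.83 in microglia and Slc30a1 and Tfrc to 1.39 and 1.16 in pericytes. Under the other alternatives changes of sign of the stroke change were confined to values that were not called: the log2 change of Tfrc in pericytes was 0 in replicates 1 to 4, and with libraries left out it ranged from -0.78 to 0.09 for Slc30a1 in pericytes and from -0.26 to 0.45 for Mt3 in microglia. Contralateral level differences on the log2 scale ranged, with libraries left out, from -1.07 to 0.05 for Mt3 and from -0.18 to 0.24 for Fth1 (endothelial cells minus microglia), from -0.44 to 0.24 for Slc39a14, from -0.19 to 0.78 for Slc40a1 and from -0.01 to 0.20 for Fth1 (pericytes minus astrocytes), from -0.19 to 0.25 for Slc39a14 and from -0.38 to 0.14 for Tfrc (pericytes minus microglia), and from -0.21 to 0.34 for Trf (astrocytes minus microglia). Depth limits Slc39a14 in endothelial cells, with libraries at or under the floor of 3 reads.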
